A study of Zea mays with 4 samples.

Results

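The regions described here are stretches of the maize genome at which binding peaks of 3 or of all 4 assayed transcription factors lay next to each other. They were found by pooling the peak summits of the 4 deposited lists, ordering them along each chromosome or unplaced contig, and chaining neighbouring summits at most 200 bp apart. This gave 333903 regions, and 1049 of them (0.314%) held peaks of 3 or 4 different factors. The members were chosen by measured values, the summit positions of the 4 lists, so their number and their make-up are descriptions and carry no test.

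The assay, DAP-seq (DNA affinity purification and sequencing), exposes a library of purified genomic DNA to a bead-bound transcription factor and sequences the fragments it retains. The proteins were C3H23 (gene Zm00001d008323), CPP2 (gene Zm00001d031008), OBF4 (gene Zm00001d012553) and THX20 (gene Zm00001d017420), each with 1 library, and the submitters place all 4 downstream of ZmNAC128 and ZmNAC130. All 4 were Halo fusions of full-length coding sequences cloned from leaf cDNA and made in wheat germ extract, and all were offered genomic DNA from B73 leaf at 14 DAG. The regions therefore list where each protein could bind naked leaf DNA, outside chromatin and outside the endosperm, and they do not show that the proteins were on the same molecule at the same time. The names of the deposited lists carry other protein codes than the sample titles, and each list was assigned to its protein by the title of its sample. With no replicate library no difference has a replicate check. Read depth is unknown, so all intervals below are 95% intervals that cover counting error of regions only. No genome was used here, so neither sequence nor gene is given for a region, and positions are those of the deposited lists.

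By their names the factors belong to 4 unrelated families of DNA-binding proteins. C3H23 is a CCCH zinc finger protein, a family with members that bind RNA as well as members that bind DNA, and CPP2 is a member of the CPP family, whose cysteine-rich repeats bind DNA. OBF4 is an ocs-element binding factor of the bZIP class, whose dimers recognise short elements with an ACGT-like core, and THX20 is a trihelix protein, a family known from GT-rich elements of light-regulated promoters. Promoters and enhancers of plants commonly bring sites of several such families together within a short stretch of DNA.

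C3H23 and CPP2 were the factors met most often in the regions, and OBF4 the least often. C3H23 took part in 1010 of the 1049 regions (96.3%), CPP2 in 905 (86.3%, 95% Wilson interval 84.1 to 88.2%), THX20 in 829 (79.0%, 76.5 to 81.4%) and OBF4 in 421 (40.1%, 37.2 to 43.1%). The lists differ in length, and that of CPP2 was the longest, with 165420 peaks. Relative to its own list C3H23 contributed most, with 1.46% of its 76032 peaks inside the regions. The same share was 0.959% for THX20, 0.850% for OBF4 and 0.624% for CPP2. C3H23 was also the most frequent factor in regions of 2 factors, in 14363 of 19379. Of the regions a factor shared with any other, the part with 3 or 4 factors was lowest for C3H23 (6.57%, 6.19 to 6.97%). This part was 7.41% for CPP2, 8.08% for THX20 and 10.3% for OBF4. The combination of C3H23, CPP2 and THX20 accounted for 628 regions (59.9%), that of C3H23, CPP2 and OBF4 for 220 (21.0%), that of C3H23, OBF4 and THX20 for 144 (13.7%), and that of CPP2, OBF4 and THX20 for 39 (3.72%). All 4 factors met in 18 regions (1.72%). When the C3H23 list was left out and the other 3 lists were chained again, 53 regions of all 3 remaining factors were found, against 160 without CPP2, 236 without THX20 and 646 without OBF4.

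Pairs of factors differed in how often a further factor joined them. CPP2 and OBF4 met in 885 regions, and 277 of these (31.3%, 28.3 to 34.4%) also held another factor. This was the highest share of the 6 pairs. It was 18.8% (16.6 to 21.3%) for OBF4 with THX20, 16.2% (15.1 to 17.4%) for CPP2 with THX20, 14.9% (13.6 to 16.3%) for C3H23 with OBF4, 13.6% (12.7 to 14.5%) for C3H23 with THX20 and 10.8% (10.1 to 11.5%) for C3H23 with CPP2. The factors that can join differ from pair to pair, and their lists differ in length.

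Most regions were made of single peaks. In 698 regions (66.5%) each of 3 factors had 1 peak, 274 regions held 4 peaks, 61 held 5 and 16 held 6, the highest number found. THX20 was the factor most often present with several summits, in 161 of its 829 regions (19.4%, 16.9 to 22.3%), compared with 14.2% of the regions where THX20 stood alone and 22.5% of those with 1 other factor. For C3H23 this share rose with the number of factors, from 3.58% of the regions with C3H23 alone to 5.93% with 1 other factor and 9.50% (7.85 to 11.5%) in the regions of 3 or 4 factors. CPP2 went the other way, with 15.6% alone, 14.6% with 1 other factor and 12.4% (10.4 to 14.7%) here. OBF4 had 2 summits in 14 of its 421 regions (3.33%, 1.99 to 5.50%).

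The 18 regions of all 4 factors were mostly compact, and C3H23 was most often the factor with the best-ranked peak. Their 4 factors fitted within a window of 50 to 629 bp between the outer summits, with a median of 155 bp, and all 6 pairs of factors overlapped directly in 11 of the 18. By the authors' signal per peak, which orders peaks within a list, the best C3H23 peak lay in the stronger 50% of its list in 15 regions. For CPP2 this held in 8 regions, for THX20 in 7 and for OBF4 in 4. C3H23 had the best rank of the 4 factors in 11 regions, CPP2 in 4, THX20 in 2 and OBF4 in 1. In none of the 18 were all 4 best peaks in the stronger 50% of their lists, and a count of 0 allows a share of up to 16.7%.

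OBF4 stood at the edge of these regions. Its summit was the first or the last in 16 of the 18, against 7 for C3H23, 7 for THX20 and 5 for CPP2. Among the 10 regions with 1 peak of each factor, the 2 inner positions were held by CPP2 in 7, by THX20 in 7, by C3H23 in 6 and by OBF4 in 0, which allows a share of up to 30%. The 2 regions in which OBF4 was not at an end both held 6 peaks. These are chr4:179431288-179431715 and chr7:106132822-106133327.

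**Figure D1:**
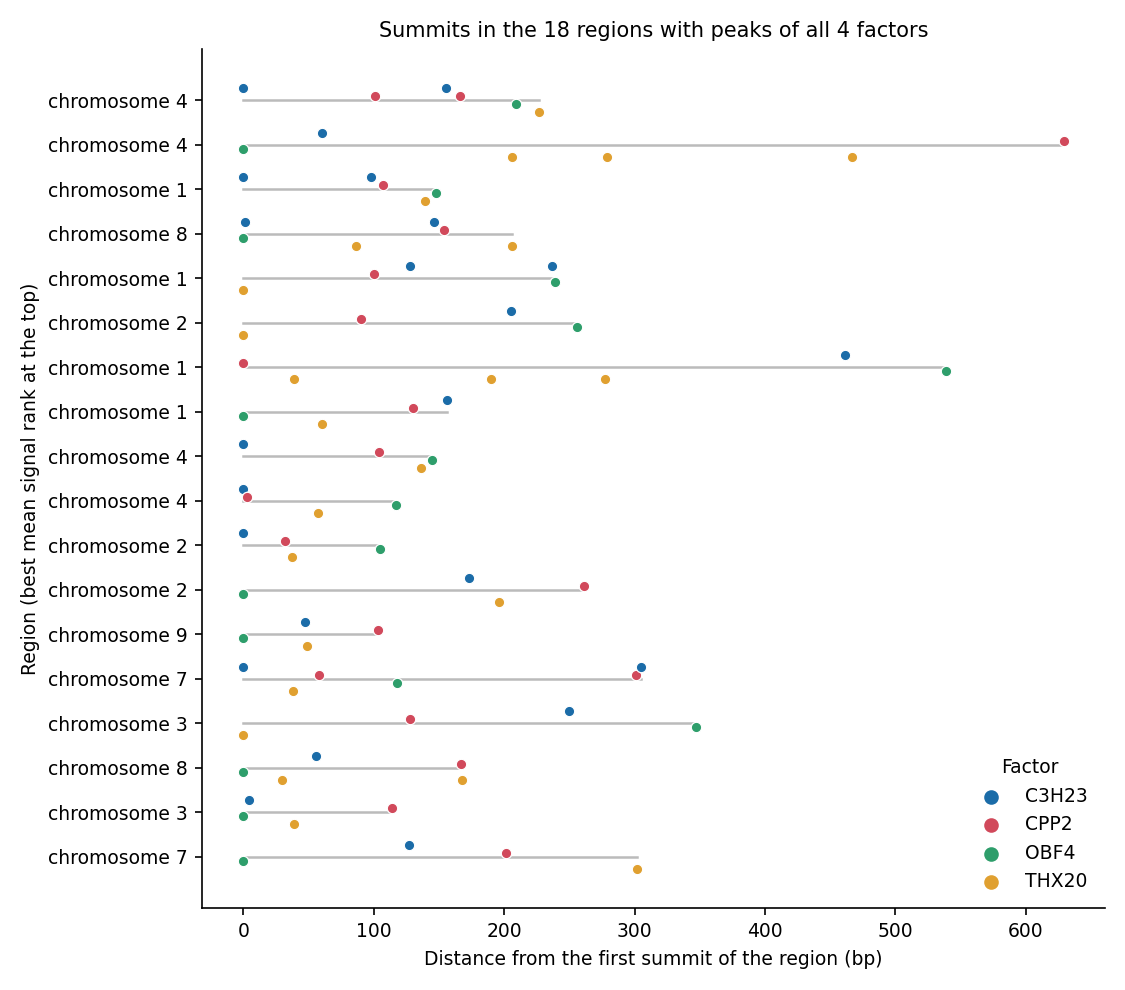
Each row is 1 of the 18 regions with peaks of all 4 factors, and each point is a summit at its distance in bp from the first summit of the region; points are set off vertically by factor so that close summits can be told apart. OBF4 lies at an end in 16 of the 18 rows, and the outer summits are 50 to 629 bp apart where the narrowest window of 4 factors is taken.

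By mean rank the first of the 18 was chr4:179431288-179431715. Its strongest C3H23 peak had a signal of 247.1, within the strongest 0.187% of that list, its CPP2 peak 111.6 (9.43%), its OBF4 peak 52.9 (15.8%) and its THX20 peak 25 (65.3%). The 4 factors fitted within 72 bp there, with 2 summits each of C3H23 and CPP2. The longest region of all, 830 bp, lay at chr4:14850566-14851395 and held 3 THX20 summits between an outer OBF4 and an outer CPP2 summit. C3H23 (signal 170) and THX20 (137.2) were strong there, at 0.916% and 2.93% of their lists, and CPP2 (36) and OBF4 (28.1) stood at 56.3% and 57.7%. A similar run of 3 THX20 summits was found at chr1:137779793-137780532, with CPP2 and OBF4 again at opposite ends. These were the only regions of all 4 factors with 3 summits of 1 factor.

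Several of the 18 shared parts of their layout. At chr1:115412094-115412442 and at chr4:114880109-114880454, CPP2 was followed after 32 bp by THX20 and after 9 bp more by OBF4, with a C3H23 summit on the other side of CPP2. The C3H23 signal was high in both, 120.4 and 98.1, and the THX20 signal low, 21 and 19. At chr1:128635909-128636265 and at chr4:140996885-140997202, OBF4 and THX20 summits stood 60 bp apart, and CPP2 and C3H23 lay beyond THX20. The first pair of places ran in the same direction along the reference and the second pair in opposite directions.

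In the remaining regions of 4 factors C3H23 was strong in some and near or below its list median in others. C3H23 had a signal of 126.2 at chr8:78660681-78661087, where THX20 reached 123.6 and CPP2 21. It had 85.7 at chr1:92683438-92683877 and 91 at chr3:77490428-77490742, where a C3H23 summit lay 2 bp and 4 bp from the OBF4 summit. The C3H23 signal was 43.2 at chr2:208254319-208254775, 59.8 at chr2:72230943-72231248 and 46 at chr2:26176329-26176790. The weakest C3H23 peak of the set, with a signal of 28.7, lay at chr3:103000121-103000668. Those at chr8:115918668-115919036 (30), chr9:130651562-130651865 (35.9), chr7:3981716-3982218 (37) and chr7:106132822-106133327 (37.2) ranged around the C3H23 list median of 36. No region of 4 factors was found on chromosomes 5, 6 and 10 or on a contig.

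All 1049 regions ran from 209 to 830 bp from the first peak start to the last peak end, with a median of 412 bp (quartiles 342 and 491). Each peak is 201 bp wide by construction, so a region of 209 bp means summits 8 bp apart. Length followed the number of peaks, with a median of 384 bp for 3 peaks, 485 bp for 4, 621 bp for 5 and 650 bp for 6. By combination, the median was shortest for C3H23, CPP2 and THX20 (403.5 bp) and longest for CPP2, OBF4 and THX20 (485 bp). The longest regions after the one on chromosome 4 were C3H23, CPP2 and THX20 at chr4:53089094-53089898 (805 bp) and CPP2, OBF4 and THX20 at chr6:154384302-154385097 (796 bp).

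A chain of summits does not require that every factor overlaps every other. The narrowest window with 3 factors was 182 bp at the median (quartiles 113 and 242), and it was at most 200 bp in 614 regions (58.5%), at most 100 bp in 217 (20.7%) and at most 20 bp in 10. In the tightest, at chr10:76094996-76095204, THX20, C3H23 and CPP2 summits followed each other at 7 and 1 bp, with signals of 22, 40 and 30. At chr2:63006966-63007352, a C3H23 and an OBF4 summit had the same position and THX20 lay 9 bp away. At chr9:61165307-61165517 the window was 10 bp. The chaining limit of 200 bp gave no natural edge. In 40 regions the widest gap was 196 to 200 bp, and 40 further places would have joined at 201 to 205 bp.

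In 604 of the 1031 regions with exactly 3 factors (58.6%) all 3 pairs of factors overlapped directly. In the other 427 a single factor overlapped both partners, which did not reach each other. That factor was C3H23 in 193 regions, THX20 in 107, CPP2 in 100 and OBF4 in 27. With CPP2 and OBF4, C3H23 was the link in 63 of 220 regions (28.6%, 23.1 to 34.9%), against 37 for CPP2 and 11 for OBF4. With OBF4 and THX20 it was the link in 40 of 144 (27.8%, 21.1 to 35.6%), against 12 for THX20 and 7 for OBF4. With CPP2 and THX20 the link was C3H23 in 90 of 628 (14.3%) and THX20 in 91 (14.5%), a difference of 1 region, and CPP2 in 54 (8.60%). In the 39 regions without C3H23 the link was OBF4 in 9 (23.1%, 12.6 to 38.3%), CPP2 in 9 and THX20 in 4.

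**Figure D2:**
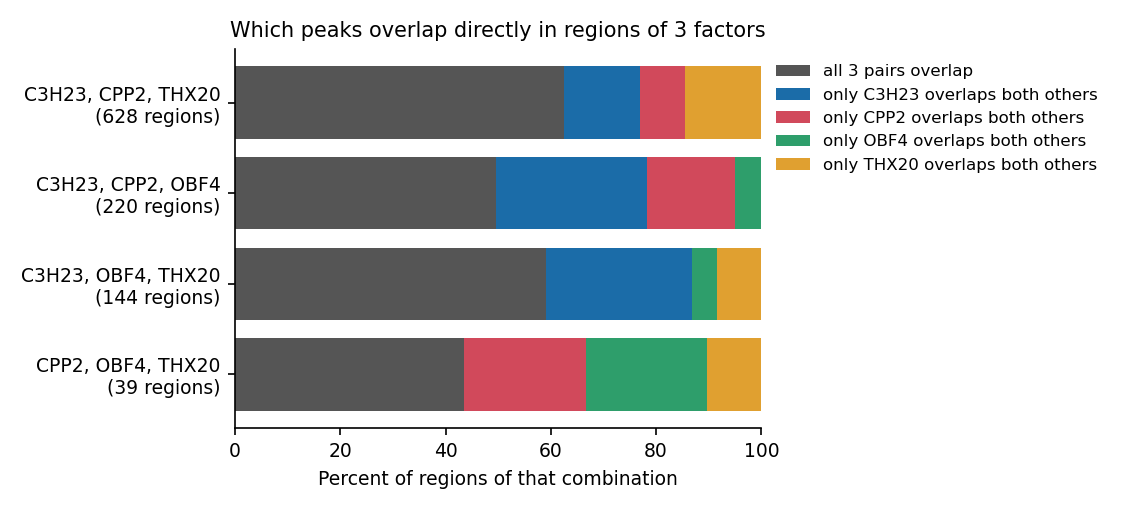
Bars give the percent of regions of each combination of 3 factors in which all 3 pairs of peaks overlap (grey) or in which a single factor, shown by colour, overlaps both others. C3H23 is the link in 28.6% and 27.8% of the regions that also hold OBF4, and in 14.3% of those with CPP2 and THX20.

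Where C3H23 was present, OBF4 was the summit least often in the middle. In the 698 regions with 1 peak of each of 3 factors the middle summit was taken without regard to direction, since strand is unknown, and in 3 of them a pair of summits had the same position. C3H23 was in the middle in 73 of 147 regions with CPP2 and OBF4 (49.7%, 41.7 to 57.6%) and in 52 of 101 with OBF4 and THX20 (51.5%, 41.9 to 61.0%). OBF4 was in the middle in 23 (15.6%) and 21 (20.8%) of the same regions. With CPP2 and THX20 the middle place was shared nearly evenly, by THX20 in 153 of 425 regions (36%), C3H23 in 148 (34.8%) and CPP2 in 124 (29.2%). Over all such regions with C3H23, it was in the middle in 273 of 673 (40.6%, 36.9 to 44.3%). Among the 25 such regions without C3H23, OBF4 and CPP2 were each in the middle in 10 and THX20 in 5. In the complete lists C3H23 and OBF4 met in 2567 regions, against 1068 for OBF4 with THX20 and 885 for CPP2 with OBF4, and the part of this in the order was not tested.

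For each pair of factors, the most frequent exact distance between summits in the regions was taken, and the shortest where distances tied. These distances were chosen by their counts, and how high a most frequent count is at unrelated places was not tested. OBF4 and THX20 summits were 60 bp apart in 11 regions, against a mean of 0.55 at the 10 distances on either side. All 11 also held a C3H23 peak, as did all but 39 of the 201 regions with this pair. Of the 11, 2 were the regions of 4 factors described above. The complete lists contained this distance 22 times (mean around it 5.8), and 11 of the 22 pairs were in regions of 3 or 4 factors. As the distance was chosen by its count in these regions, a high share here follows in part from the choice. The distance of 81 bp, the most frequent of this pair in the complete lists (42 times), occurred in 1 of the regions.

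The 11 places lay on chromosomes 1, 2, 3, 4, 6, 9 and 10 and on a contig. THX20 came after OBF4 in the listed direction in 5 and before it in 6. Counted from OBF4 towards THX20, the C3H23 summit lay beyond THX20, at 95 to 106 bp from OBF4, in 3 of the 9 regions without CPP2, namely at chr1:128580618-128580913, chr2:172365180-172365485 and chr4:224989136-224989442. The best C3H23 signals there were 45, 34 and 65, and those of OBF4 34.5, 26 and 34. In 2 regions C3H23 lay between the pair, and in the remaining 4 it lay from 139 bp on the side of OBF4 away from THX20 to 349 bp on the THX20 side.

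C3H23 and THX20 summits stood 86 bp apart in 15 regions, against a mean of 3.85 at the 10 distances on either side. All 15 also held CPP2, as did all but 144 of the 790 regions with this pair. The complete lists had it 103 times (mean around it 32.8). The distances most frequent between these factors in the complete lists were less frequent here: 286 bp occurred in 3 regions and 129 bp in 7. In 4 of the 15 regions CPP2 lay 87 or 88 bp from C3H23 on the side away from THX20, so that the 3 summits were evenly spaced. These were at chr3:178783157-178783530, chr4:68848526-68848967, chr4:100918454-100918827 and chr4:145434685-145435212. THX20 was strong in them, with signals of 140, 58.7, 265 and 112.5 against a list median of 32, and CPP2 was weak, with 21, 20, 18 and 24 against a median of 41.

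C3H23 and OBF4 summits stood 4 bp apart in 13 regions, against a mean of 2.08 around that distance. The complete lists had it 61 times (mean around it 22.9). The distance of 12 bp, the most frequent of this pair in the complete lists (68 times), occurred in 1 of the regions. In 3 of the 13 a THX20 summit followed at 104 bp from C3H23, at chr10:108189442-108190118, chr2:75165461-75166139 and chr5:94825771-94826075. The first 2 of these agreed over 5 peaks. C3H23, OBF4 and 3 THX20 summits followed at gaps of 4, 100, 181 and 191 bp on chromosome 10 and of 4, 100, 183 and 191 bp, in the opposite direction, on chromosome 2. Their C3H23 signals were 59 and 60, their OBF4 signals 20.6 and 20.9, and their best THX20 signals 102.5 and 65.4.

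Among the other pairs, the distances most frequent in the regions for CPP2 with THX20 and C3H23 with CPP2 stood out less in the complete lists. CPP2 and THX20 summits were 32 bp apart in 11 regions, against a mean of 3.9 at the 10 distances on either side, but the complete lists had this distance 30 times against a mean of 30.2. C3H23 and CPP2 were 67 bp apart in 10 regions (mean 3.55), and 53 times in the complete lists (mean 42.8). In the regions, distances of 74 and 111 bp were counted as often between them. The distance most frequent in the complete lists was 9 bp for both pairs, and it was also raised in the regions. For C3H23 with CPP2 it occurred 101 times (mean around it 41.4), and 9 times in the regions (mean 4.22). For CPP2 with THX20 it occurred 63 times (mean 25.3), and 9 times in the regions (mean 3.56). CPP2 and OBF4 were 130 bp apart in 5 regions (mean 0.95), and 14 times in the complete lists (mean 4.35). For this pair, distances of 131, 150 and 174 bp were counted as often in the regions.

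**Figure D3:**
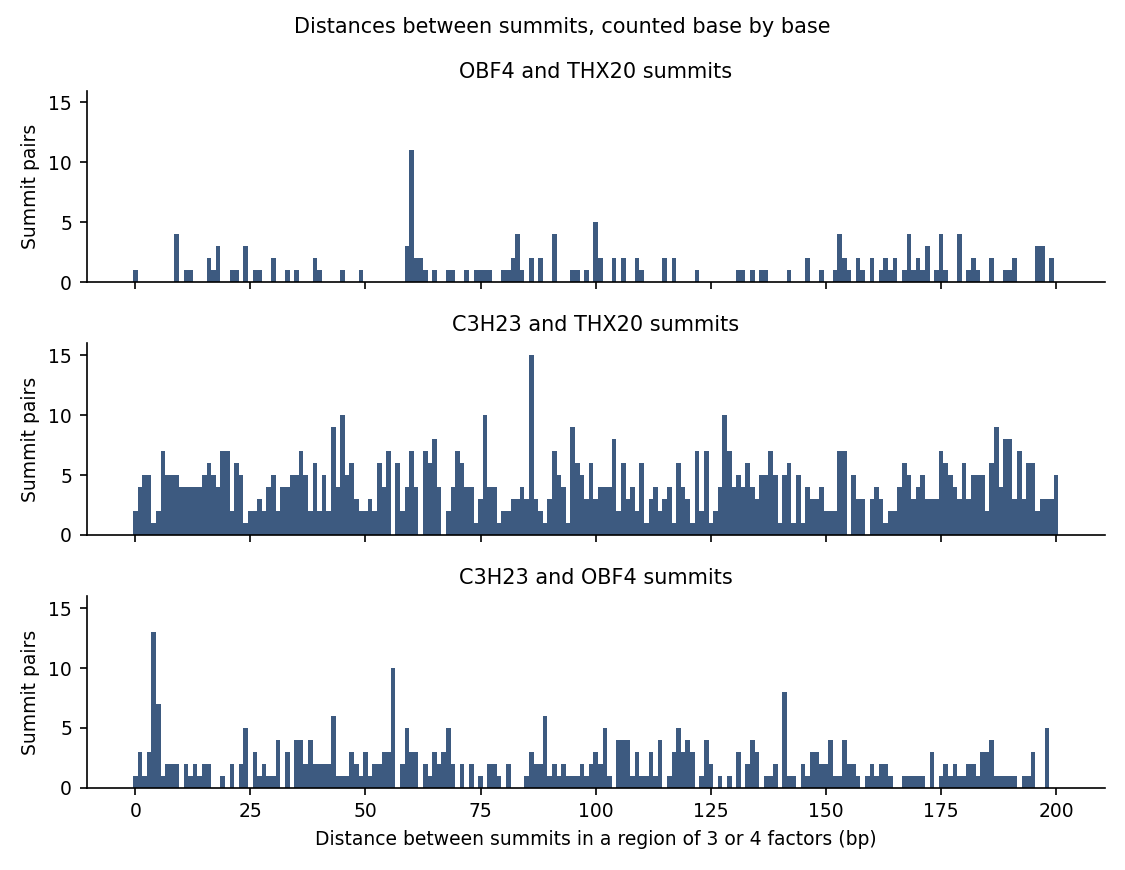
Bars count pairs of summits of 2 factors in regions of 3 or 4 factors by their distance in bp, up to 200 bp, without regard to which came first. The highest bar is at 60 bp for OBF4 with THX20 (11 pairs), 86 bp for C3H23 with THX20 (15) and 4 bp for C3H23 with OBF4 (13). Pairs with CPP2 are not drawn.

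Whole layouts also returned at different places. With the factors in the same order, read in either direction, and each gap within 3 bp, 107 of the 1049 regions matched at least 1 other region. How many such matches unrelated places would give was not tested. Among layouts with 3 or more copies, every copy matched every other copy in 3 layouts. Each of these had 3 copies, the highest number found for such layouts. One held C3H23, CPP2 and THX20 at gaps of 170 to 173 and 17 to 18 bp, at chr1:119022269-119022657, chr10:34229532-34229922 and chr9:59979043-59979432. Its THX20 signals of 90.1, 64.1 and 37.5 were above the list median of 32, and its CPP2 signals of 40, 20 and 29 were below that of 41. Another held the same factors in the same order at 155 to 158 and 34 to 37 bp, at chr8:82266341-82266735, chr9:43369519-43369913 and a place on a contig. THX20 (111.2, 43 and 96.9) was again above and CPP2 (26, 17 and 20) again below the median. The remaining layout held C3H23, CPP2 and OBF4 at 184 and 130 to 133 bp, with a pair of copies close together at chr2:242940371-242940885 and chr2:242945305-242945822 and another at chr6:76894741-76895255. Here CPP2 was strong, with signals of 132, 175 and 60.

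Layouts of 4 or more peaks that returned were singled out after their values had been seen. Besides the one of 5 peaks, C3H23, CPP2, C3H23 and OBF4 stood at gaps of 25, 178 and 56 bp at chr1:67901970-67902429 and of 25, 176 and 56 bp at chr5:201571943-201572400. Their C3H23 signals were 72 and 175.6, so the same spacing came with different strength. C3H23, CPP2 and 2 THX20 summits stood at 189, 30 and 151 bp and at 187, 27 and 152 bp at chr4:62810073-62810643 and chr4:88521157-88521723. Around repeated layouts, a further peak of the same factor at the same relative place (within 10 bp) was found for 6 of the 107 regions within 2 kb.

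When sets of 3 summits inside larger regions were included and each gap had to lie within 1 bp of that of a reference set, 7 sets returned in 3 or more regions, and 4 was the highest number. CPP2, C3H23 and OBF4 at gaps of 272 and 5 bp was found at chr1:109479840-109480317, chr5:127106708-127107186, chr5:161025516-161025993, and chr6:5065080-5065557. By the best peak of each factor in the region, CPP2 was strong in all 4 (signals 121, 157.9, 138.7 and 200), and C3H23 (27.9, 35, 40.1 and 27.9) and OBF4 (30, 20, 17 and 27) were near or below their list medians of 36 and 30.8, C3H23 slightly above in 1. C3H23, CPP2 and OBF4 at 106 and 35 bp were found at chr2:97371948-97372289, chr4:115770178-115770519, chr5:112656827-112657168 and chr8:33612136-33612478, where C3H23 was strong (60, 109.3, 123 and 74.2) and CPP2 (48.2, 44, 53 and 44) was above its list median of 41. A set of CPP2, C3H23 and OBF4 at 12 and 43 bp had all its 3 places on the same chromosome, at chr2:155446566-155446947, chr2:167741745-167742100 and chr2:192066764-192067019.

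Close pairs of C3H23 and OBF4 summits were less frequent where further factors were present, and for the other pairs the intervals overlapped. The regions were chosen by the same summit positions, so these shares are descriptions. The part of that choice in the difference was not tested. Among overlapping C3H23 and OBF4 peaks, 33.0% (28.2 to 38.3%) had summits within 50 bp in regions of 3 or 4 factors, against 42.1% (40.1 to 44.2%) where these 2 factors were alone. For OBF4 with THX20 the shares were 19.9% (14.2 to 27.1%) and 27.6% (24.7 to 30.6%). For C3H23 with CPP2 they were 28.6% and 28.0%, for C3H23 with THX20 29.6% and 25.8%, for CPP2 with THX20 35.3% and 34.2%, and for CPP2 with OBF4 39 of 205 pairs and 19.4%.

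The strength of the peaks in these regions differed by factor. The best CPP2 peak was in the stronger 50% of its list in 300 of 905 regions (33.1%, 30.2 to 36.3%), against 52.9% of all regions with CPP2. Its median signal was 30.7 here, 35.9 in regions of 2 factors and 44 where CPP2 was alone. OBF4 was also weak, with 148 of 421 regions (35.2%, 30.7 to 39.8%) against 50.2% of all regions with OBF4, and a median signal of 27.1 against 28 with 1 other factor and 31 alone. This was not particular to regions of 3 or 4 factors, as the OBF4 share was 34.6% in regions of C3H23 and OBF4 only. Of the 421 regions, 382 also held C3H23. C3H23 was slightly stronger than usual, with 564 of 1010 (55.8%, 52.8 to 58.9%) against 49.8%, and a median of 39 against 36 in both other kinds of region. THX20 was in the stronger 50% in 459 of 829 (55.4%, 52.0 to 58.7%) against 52.2%, an interval that includes the background, and its median signal was 34, against 34.7 and 33.

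**Figure D4:**
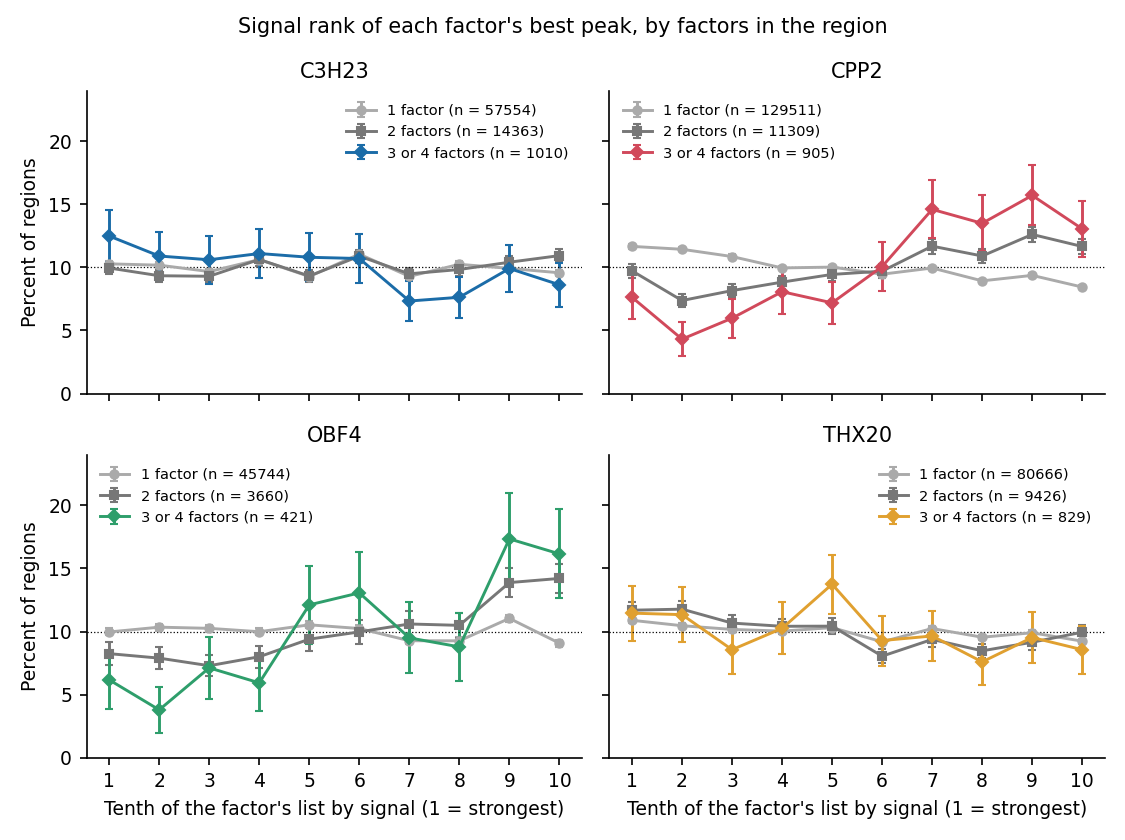
Each panel divides 1 factor's list into 10 equal classes by signal and gives the percent of regions whose best peak of that factor falls in each, for regions of 1 factor, of 2 factors and of 3 or 4 factors, with approximate 95% counting intervals. In regions of 3 or 4 factors CPP2 and OBF4 are shifted to the weak classes, with 13.0% and 16.2% in the weakest class, and C3H23 has 12.5% in the strongest.

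The strength of a factor's peak differed with its company. C3H23 peaks were strongest where OBF4 was present, in the stronger 50% of their list in 64.5% (58.0 to 70.6%) of the regions with CPP2 and OBF4, 71.5% (63.7 to 78.3%) of those with OBF4 and THX20 and 83.3% (60.8 to 94.2%) of those with all factors. With CPP2 and THX20 the share was 48.4% (44.5 to 52.3%). The same was seen where C3H23 met a single partner, with 64.9% beside OBF4, 53.2% beside THX20 and 40.2% beside CPP2. CPP2 peaks were weakest beside C3H23 and THX20, with 26.0% (22.7 to 29.5%) in the stronger 50%, against 48.6% (42.1 to 55.2%) beside C3H23 and OBF4. Beside OBF4 and THX20 the CPP2 share was the highest, at 56.4% (22 of 39 regions), so THX20 was present at both the lowest and the highest CPP2 share. In regions of 2 factors CPP2 had 33.4% beside THX20, 43.9% beside OBF4 and 48.4% beside C3H23. OBF4 ran from 22.2% (4 of 18) in the regions of all factors to 43.6% (29.3 to 59.0%) beside CPP2 and THX20, with overlapping intervals. Where OBF4 met a single partner the intervals were apart. Its share was 34.6% (32.7 to 36.7%) beside C3H23, 46.3% (43.0 to 49.6%) beside THX20 and 55.4% (51.5 to 59.3%) beside CPP2.

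All factors of a region were in the stronger 50% of their lists in 101 of the 1049 regions (9.63%, 7.99 to 11.6%), in the strongest 20% in 5 and in the strongest 10% in 1. None had all its factors in the strongest 5%, and a count of 0 allows a share of up to 0.286%. In 152 regions (14.5%) no factor reached the stronger 50%. Across the regions the ranks of 2 factors were nearly unrelated, with Spearman correlations from -0.03 for CPP2 and THX20 (685 regions, Pearson -0.03) to 0.11 for CPP2 and OBF4 (277 regions, Pearson 0.13). Regions of the same lists share their libraries and are not independent, so these values are descriptions.

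The strongest region by mean rank held C3H23, CPP2 and THX20 at chr6:130267133-130267550. It was the region with all its factors in the strongest 10%. Its C3H23 summit (signal 94) lay 90 bp from THX20 (90) and 127 bp from CPP2 (219, within the strongest 0.575%), and it alone overlapped both. The second of this combination, at chr7:69186138-69186554, had the same order read the other way and similar gaps of 84 and 132 bp, with signals of 72, 100 and 174. The third, at chr8:61071855-61072193, had strong THX20 (239.6) and C3H23 (193) and a CPP2 peak of 63.3. For C3H23, CPP2 and OBF4 the leading regions lay at chr2:11720934-11721428, chr4:138453501-138454016 and chr7:52511654-52512182. Their CPP2 signals were 143.5, 124.8 and 138, and in the first 2 OBF4 lay 56 bp from C3H23.

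The regions of OBF4 and THX20 with the best mean ranks are given next. With C3H23 they lay at chr10:76453992-76454387, chr1:265635258-265635773 and chr3:83266588-83267016. Their C3H23 signals were 209, 56 and 73, their THX20 signals 80.4, 78.5 and 64, and their OBF4 signals 42.5, 87 and 62.6. In all 3 THX20 lay between OBF4 and C3H23. The first had a THX20 summit 104 bp from OBF4 and 91 bp from C3H23, and the last 1 at 91 and 137 bp. The region on chromosome 1 had 2 THX20 summits, 116 bp apart, of which 1 lay 95 bp from OBF4 and the other 104 bp from C3H23. Without C3H23 the leading regions were at chr10:69715359-69715892, chr6:154384302-154385097 and chr4:91093331-91093995. In the first of these CPP2 (131), OBF4 (90.9) and THX20 (77) were within 5.68%, 4.29% and 12.6% of their lists, although THX20 alone overlapped both others. The shortest of the 16 regions with 6 peaks were those at chr8:78660681-78661087 and chr4:179431288-179431715 described above and one at chr1:240374858-240375337, with 2 summits each of C3H23, CPP2 and THX20.

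The regions were denser in the middle of chromosomes. Of the 1029 on the 10 chromosomes, 252 lay in the central 20% of chromosome length and 150 in the outermost 10% on each side, which gave a ratio of 1.68 (95% interval from counts, 1.37 to 2.06). Regions of 1 factor had a ratio of 1.26 (1.25 to 1.27) and regions of 2 factors 1.41 (1.35 to 1.48), so the interval for 3 or 4 factors excluded the former and overlapped the latter. The centre held more than the ends on 9 chromosomes, and on chromosome 9 the ends held 16 and the centre 12. By combination the ratio was 1.81 (1.18 to 2.79) for C3H23, CPP2 and OBF4, 1.70 (1.31 to 2.22) for C3H23, CPP2 and THX20, and 1.22 (0.701 to 2.11) for C3H23, OBF4 and THX20, with intervals that overlap. With equal numbers of the strongest peaks from each list the ratio was 1.5 (0.875 to 2.57), an interval that includes 1. Neighbouring regions are not independent.

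**Figure D5:**
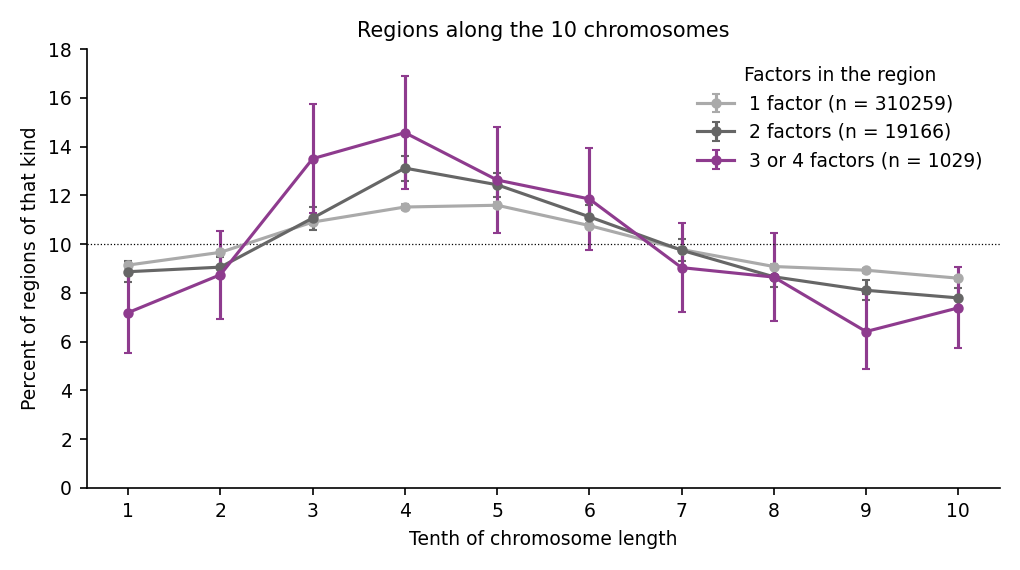
Points give the percent of regions of 1 factor, 2 factors and 3 or 4 factors in each of 10 equal parts of chromosome length, summed over the 10 chromosomes, with approximate 95% counting intervals. Regions of 3 or 4 factors reach 14.6% in the 4th part and 6.41% in the 9th.

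Densities on the chromosomes with the fewest and the most regions per Mb had overlapping intervals. The density ran from 0.427 regions per Mb on chromosome 1 (131 regions, interval 0.357 to 0.506) to 0.543 on chromosome 4 (134 regions, 0.455 to 0.643). As a share of all joined regions the range was 0.282% to 0.335%. On contigs not placed on a chromosome there were 20 regions on 16 contigs, 0.580% (0.376 to 0.894%) of the joined regions there, against 0.311% (0.293 to 0.331%) on the chromosomes. Over a contig span of 21.3 Mb the density was 0.939 regions per Mb (0.573 to 1.45), against 0.489 (0.459 to 0.519) on the 10 chromosomes. Full contig lengths and assembly quality were not taken into account.

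Most of the regions lay far from each other. The nearest other region of 3 or 4 factors was 653958 bp away at the median, and 1316 of 2101 full bins of 1 Mb held none. At most 4 shared a bin, on chromosome 4 (2 bins), 6 and 8. Within 10 kb of another such region lay 41, and within 1 kb 4. The closest were 92 bp apart on chromosome 1, with C3H23, CPP2 and OBF4 at chr1:110123825-110124146 and C3H23, CPP2 and THX20 at chr1:110124238-110124543. The next were 99 bp apart on chromosome 8, at chr8:159134492-159134875 and chr8:159134974-159135395, both with C3H23, CPP2 and THX20. Their surroundings held about as many other peaks as those of regions of 2 factors, with a median of 5 further peaks within 10 kb on either side in both (mean 5.10 and 5.03) and 4 around regions of 1 factor (mean 4.43).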

How the data were processed

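DAP-seq of 4 factors, 1 library each, was analysed from 4 deposited peak lists, grouped by sample title, although the names of the lists carry other protein codes. The submitters' processing notes name Trimmomatic 0.39, a read trimmer, and Bowtie2 2.4.1, an aligner. The peak caller, its control, the genome build and the depth were not given in the sources used here. The lists have 10 columns in narrowPeak layout, and the authors' signal per peak, of unstated scale, was used to rank peaks of the same list. Ranking by the deposited −log10 p-value was an alternative, and the deposited score and −log10 q-value were not used.

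Summits, 100 bp from either peak end, were chained at up to 200 bp, so that joined peaks share at least 1 bp. A factor's best peak is its strongest by signal, and percentiles run from the strongest. Shares have 95% Wilson intervals. Positions are printed counted from 1. The central and outer parts are taken on each chromosome up to its last peak. Counts, medians and ratios were computed with pandas 2.3.3, numpy 2.4.6 and scipy 1.17.1 under Python 3.11.15, and figures drawn with matplotlib 3.10.9. Chaining was tested on simulated data. The members and lists were chosen with earlier results of these data known. Named regions are all those of 4 factors, the 3 best by mean rank of each combination, the 3 longest, the 3 with most peaks (the shortest of equals) and the 3 narrowest, and the 3 most frequent layouts (3 copies each, every 2 copies within 3 bp at each gap). Regions tied to repeated distances, sets of 3 summits and layouts of 4 or more peaks, and the closest neighbours, were chosen after their values were seen. Genes and sequences were not used here, because a gene table at hand is of another assembly.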

Additional observations from a re-analysis of the deposited data

How the results depend on the processing

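No paired analysis was possible because no factor had a replicate library to pair or to leave out. Of 45 alternative values of 10 results, 25 stayed within the interval of the reported value or within 1.5 times its count, and 20 moved, none with a test. With summits chained at up to 100 bp there were 371 regions, 9 of all 4 factors. The 371 had a median length of 301 bp, with C3H23 in 98.4%. C3H23 was in the middle in 35.8% (30.8 to 41.3%) there, against 40.6% (36.9 to 44.3%) as reported. Best peaks were in the stronger 50% at 60% (C3H23), 23.7% (CPP2), 26.9% (OBF4) and 51.3% (THX20). Chaining at up to 300 bp gave 1760 regions, 36 of all 4 factors, and 512.5 bp. The stronger 50% of each list left 98 regions, 0 of all 4 factors (which allows up to 3.06%), with C3H23 in 91.8% and in the middle in 44.6%, and a central over outer ratio of 2.4 (1.15 to 5.02). That ratio was 1.52 (1.09 to 2.10) with chaining at 100 bp, 1.64 at 300 bp and 1.5 (0.875 to 2.57) with equal numbers. Equal numbers of strongest peaks (51187 per list) left 153 regions, 1 of all 4 factors, with C3H23 in the middle in 50%. Shorter lists and narrower chains give fewer regions by construction, and of the remaining changes the cause was not tested. Leaving out contigs (1029 regions), ranking by p-value and counting all peaks moved no value beyond its interval. The unknown depth limits every count.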
